A study of Mus musculus with 6 samples.

Results

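Apobec3 and 8 other protein-coding genes of mouse chromosome 15, Cbx7, Csnk1e, Ift27, Ncf4, Gml, Gml2, Parvg and Them6, were followed in megakaryocytic-erythroid progenitors (MEPs) of wild-type and Tmprss6 knockout mice. They were matched by gene symbol, 9 of 52459 genes in the deposited table, and lie between 3.72 Mb on the lower-coordinate side and 5.86 Mb on the higher-coordinate side of Tmprss6 (ENSMUSG00000016942, chromosome 15, 78439668 to 78468634, minus strand). Distances here are gaps between the nearest ends of the annotated spans. All 9 genes were chosen with the knockout and wild-type values of these same libraries in view, so their genotype differences are given as a description, with no test. In 7 of them all knockout libraries lay below all wild-type libraries, and in the other 2, Ncf4 and Them6, all lay above. Of all 13453 genes tested, 1.75% lay below and 2.27% above in this way.

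There were 3 libraries of genotype WT and 3 of genotype Tmprss6-/- (KO below), each made from the sorted MEPs of 3 pooled mice. Tmprss6 encodes a liver protease that restrains hepcidin, the hormone that limits iron entry into the blood, and its loss causes iron deficiency, the condition the series addresses. The labels give neither the age nor the strain of the mice, nor the strain in which the allele was made. All KO libraries carry the targeted chromosome 15, so that loss of the protease and any sequence difference inherited together with the allele cannot be told apart in this design.

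As background, genes that sit on the same chromosome as a targeted allele are inherited with it, the more often the closer they lie. Apobec3 is the only APOBEC3 gene of the mouse, a cytidine deaminase that is packaged into retroviral particles and restricts retroviruses, and its alleles differ between inbred mouse strains in transcript level and splicing. The other genes have unrelated roles. Cbx7 is a chromodomain subunit of Polycomb repressive complex 1, Csnk1e a casein kinase that phosphorylates the clock protein PER, Ift27 a small GTPase of the intraflagellar transport B complex and Parvg an adaptor of integrin-linked kinase found mainly in blood cells. Ncf4 encodes p40phox, a regulatory subunit of the phagocyte NADPH oxidase. Gml and Gml2 encode proteins of the Ly6 and uPAR family, and Them6 belongs to the thioesterase superfamily.

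RefSeq promoter sequences of build GRCm38.p6, from 250 bases before to 50 bases after the transcription start, were matched for 5 of the 9 genes. Those of the 4 genes that lay within 2 Mb of Tmprss6 and were lower in KO are shown. Among the 9 genes, they are the lower ones nearest to the targeted locus. All are the reference sequence, not the sequence of these mice. Capitals mark matches on either strand to the core of an interferon-stimulated response element (GAAA repeated on the same strand after any 2 bases), to CCAAT (the CCAAT box) and to GGGCGG (the GC box). Where a gene had several windows, the one nearest to its principal GENCODE transcript start was taken.
Apobec3 promoter, chr15:79892158-79892457, plus strand: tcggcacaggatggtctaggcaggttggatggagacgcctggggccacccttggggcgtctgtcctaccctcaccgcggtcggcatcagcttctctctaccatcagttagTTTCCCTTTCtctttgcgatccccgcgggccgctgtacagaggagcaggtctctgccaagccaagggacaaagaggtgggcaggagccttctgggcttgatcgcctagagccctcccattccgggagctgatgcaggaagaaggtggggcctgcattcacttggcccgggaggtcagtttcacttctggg
Cbx7 promoter, chr15:79932597-79932896, minus strand: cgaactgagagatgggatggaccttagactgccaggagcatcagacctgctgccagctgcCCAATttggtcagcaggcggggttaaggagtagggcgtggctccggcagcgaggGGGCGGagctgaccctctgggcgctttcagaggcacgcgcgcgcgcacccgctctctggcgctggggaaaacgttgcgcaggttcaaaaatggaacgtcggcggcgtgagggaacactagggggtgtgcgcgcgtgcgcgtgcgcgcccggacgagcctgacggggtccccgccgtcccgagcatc
Csnk1e promoter, chr15:79442008-79442307, minus strand: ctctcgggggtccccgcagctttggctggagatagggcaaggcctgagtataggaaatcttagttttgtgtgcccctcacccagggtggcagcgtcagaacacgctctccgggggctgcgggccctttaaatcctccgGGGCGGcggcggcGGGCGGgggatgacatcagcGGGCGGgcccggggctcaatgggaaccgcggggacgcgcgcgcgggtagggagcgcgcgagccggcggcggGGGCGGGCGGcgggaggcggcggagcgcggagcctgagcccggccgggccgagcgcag
Ift27 promoter, chr15:78174032-78174331, minus strand: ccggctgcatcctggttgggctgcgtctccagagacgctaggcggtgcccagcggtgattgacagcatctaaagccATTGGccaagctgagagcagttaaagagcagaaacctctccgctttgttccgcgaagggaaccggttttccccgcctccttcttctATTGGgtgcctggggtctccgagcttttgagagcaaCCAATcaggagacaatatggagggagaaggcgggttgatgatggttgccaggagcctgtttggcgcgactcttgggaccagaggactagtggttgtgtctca

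The 4 windows had no motif in common. The Apobec3 window held the interferon response core once, 140 bases before the start on the opposite strand, a match that 3.43% of the 32817 RefSeq promoter windows hold. Csnk1e had 5 GC boxes, of which the 2 nearest to the start share bases, Cbx7 had 1, and 35.6% of all windows hold one. Ift27 held 3 CCAAT boxes and Cbx7 held 1, against 37.4% of all windows with at least one. The GATA motif AGATAA (11.2% of all windows), the ETS core CCGGAAG (8.86%) and the TATA box TATAAA (13.6%) had no match in any of these windows, and the E-box CAGCTG (16.3%) had 1, in Cbx7. The GC content was 61% for Apobec3, 67.3% for Cbx7, 74% for Csnk1e and 56.7% for Ift27.

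Levels are given in CPM, the read count scaled for sequencing depth with TMM, and values listed in a row are those of replicates 1, 2 and 3, in that order. Library totals ran from 13402209 to 22986837 counts. The floor was set at 3 counts, or 0.138 to 0.22 CPM depending on the library. The 10 MEP markers were all detected and summed to 2630 to 5030 CPM per library, but varied within groups: Gata1 ranged from 381 to 610 CPM, Gata2 from 244 to 814 CPM and Kit from 316 to 1640 CPM. Nfe2, a transcription factor gene that also lies on chromosome 15, was lower in every KO library (793 to 802 CPM against 493 to 790 CPM, edgeR adjusted p = 1.00). Tmprss6 itself had 5, 4 and 0 counts in the WT libraries and 0, 5 and 0 in the KO libraries, near the floor in both groups, so the targeted gene checked no label. KO replicate 2 stood apart: 9 macrophage markers summed to 2280 CPM there and to between 30.2 and 196 CPM elsewhere, and 9 neutrophil markers to 3390 CPM there and to between 81.3 and 378 CPM elsewhere. Markers of eosinophils, basophils and mast cells summed to 8490 CPM there and to 43.2 to 803 CPM elsewhere. Those of late erythroblasts summed to 5280 CPM there, to 371 and 390 CPM in KO replicates 1 and 3, and to 151 to 250 CPM in WT. In 6 of these 9 late erythroblast genes all KO libraries lay above all WT libraries, against 2.27% of all genes tested. The median log2 fold change of the 9 late erythroblast genes was 3.6, and 1.18 without KO replicate 2. B and plasma cell markers summed to 1500 and 1230 CPM in KO replicates 2 and 3 and to 147 to 274 CPM elsewhere, and the part of these lists in any difference below was not tested. Values that KO replicate 2 moved strongly are also given without it, an alternative that for gene lists and neighbouring genes was chosen after seeing the data. Across all 13453 genes tested, edgeR's quasi-likelihood test called 0 genes between the genotypes (0%, 234 at an unadjusted p under 0.05). DESeq2 called 6 (0.0446%), among them Apobec3 and Gml2, and limma voom called 0 (97 at an unadjusted p under 0.05). With the replicate number as a block DESeq2 called 23 (0.171%), 4 of them among the 9 genes. edgeR with the block and without both libraries of pair 2 called 117 of 13572 (0.862%), 7 of them among the 9. As the genes were chosen from this contrast, nothing is read from those calls.

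Apobec3 (ENSMUSG00000009585, chromosome 15, 79891659 to 79915906, plus strand, 1.42 Mb from Tmprss6) measured 176, 180 and 168 CPM in the WT libraries and 54.3, 69.8 and 77.6 CPM in the KO libraries. The WT libraries lay close together and well above every KO library. The WT mean of 175 ± 5.99 CPM was 2.6-fold the KO mean of 67.3 ± 11.9 CPM (SD, n = 3; log2 fold change -1.38, SE 0.26). The lowest WT library was 2.17 times the highest KO library. A gap of at least 2 times in this direction was seen in 4 of the 13453 genes (0.0297%), of which 3 were Gml, Gml2 and Apobec3, a count that the choice of genes bears on. The remaining one, Gm7173 of the X chromosome, reached at most 1.31 CPM. In WT, Apobec3 was among the well expressed genes, with 63.2 CPM per kilobase of its longest GENCODE basic transcript, above 87.4% of tested genes.

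Cbx7 (ENSMUSG00000053411, 79915807 to 79971119, minus strand, 1.45 Mb from Tmprss6) lies tail to tail with Apobec3. The WT libraries measured 8.62, 10.5 and 12.7 CPM and the KO libraries 2.57, 4.6 and 3.31 CPM. Every KO library lay below every WT library, and the means differed 3.03-fold (10.6 ± 2.02 and 3.49 ± 1.03 CPM, log2 fold change -1.60, SE 0.41). The annotated spans of the pair overlap by 100 bases, which the library kit cannot assign to a strand. In GENCODE M21, 1 of 20 Apobec3 transcripts reaches the span of Cbx7, and the last basic one ends at 79908436. Of the 50-base words in Cbx7 transcripts, 0.76% also occur in Apobec3. Of those in Apobec3 transcripts, 8.84% also occur in other genes, D730005E14Rik and AI506816 among them. The nearest tested genes on either side that were not among the 9 did not show the same difference without overlap. Cbx6, another Polycomb chromobox gene 57 kb from Apobec3, had means of 27.8 ± 7.64 CPM (WT) and 28.3 ± 9.23 CPM (KO; log2 fold change 0.03, SE 0.35). The ribosomal protein gene Rpl3, 107 kb beyond Cbx7, had a log2 fold change of -0.76 (SE 0.46) with overlapping groups, and neither gene passed edgeR's test over all genes (adjusted p = 1.00). With the replicate block in pairs 1 and 3, edgeR called Rpl3 lower in KO, with an adjusted p of 0.027 and a log2 fold change of -0.45 (SE 0.09).

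Csnk1e (ENSMUSG00000022433, 79417856 to 79443919, minus strand, 0.95 Mb from Tmprss6) measured 34.4, 41.3 and 68.5 CPM in the WT libraries against 12.4, 24.6 and 24.4 CPM in the KO libraries. The groups did not overlap although the WT libraries ranged widely, and the level was 2.35-fold higher in WT (log2 fold change -1.23, SE 0.40). An antisense gene within its span, Gm16059, had at most 16 counts in any library. On the other side of Tmprss6, Ift27 (ENSMUSG00000016637, 78159465 to 78174108, minus strand, 0.27 Mb away) measured 57.7, 47.3 and 39.8 CPM in the WT libraries. Its KO libraries had 34.8, 25.4 and 25.3 CPM, so that the WT level was 1.7-fold higher (log2 fold change -0.76, SE 0.29). The highest Ift27 value in KO, that of replicate 1, was just under the lowest value in WT. None of the 50-base words of Ift27 transcripts occurred in another gene.

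Gml (ENSMUSG00000068349, 74813452 to 74818815, minus strand) and Gml2 (ENSMUSG00000068600, 74819071 to 74834871, plus strand) lie head to head with 255 bases between their spans, 3.62 and 3.60 Mb from Tmprss6. Both were low in WT and close to or under the floor in KO. For Gml the WT libraries held 77, 33 and 11 counts, and the KO libraries 1, 0 and 1. Summed over libraries this was 121 against 2 counts, a ratio of 55.4 after scaling for depth. The fitted difference was 43.1-fold (log2 fold change -5.43, SE 0.99). Both rest on 2 counts in KO, and the spread between libraries and the choice of the gene bear on both. For Gml2 the WT libraries held 242, 57 and 38 counts, and the KO libraries 12, 6 and 5, or 5.93 ± 4.57 against 0.491 ± 0.21 CPM (SD, n = 3). For both genes every KO library was below every WT library. WT replicate 1 held the largest share of both genes. Without that library the log2 fold change of Gml2 was -2.73, against -3.57 with it. The genes are paralogs, so the split of counts between them is uncertain: 18.7% of the 50-base words of Gml also occur in Gml2. Of the words of Gml2, 30.8% also occur in Gml or in Cyp11b1, which had 0 counts in every library.

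The tested genes beside this pair had overlapping groups. Ly6d and Ly6e, other members of the family 49.8 kb to one side of Gml and 120 kb beyond Gml2, had log2 fold changes of 2.49 (SE 1.26) and 0.30 (SE 0.30). Ly6d reached 120 CPM in KO replicate 2 against 2.64 to 14.3 CPM elsewhere, and without that library its log2 fold change was -0.20. Neither passed edgeR's test over all genes (adjusted p = 1.00). Them6 (ENSMUSG00000056665, 74721204 to 74724639, plus strand, 3.72 Mb from Tmprss6) lies on the same side of the chromosome and was higher in KO. The WT libraries measured 19.9, 12.4 and 12.2 CPM, and the KO libraries 35.2, 22.9 and 20.9 CPM. The lowest KO library exceeded the highest WT library by a factor of 1.05 only, and the KO level was 1.78-fold that of WT (log2 fold change 0.83, SE 0.36). Of the 50-base words of Them6, 15.7% also occur in Slurp1, which had at most 3 counts in any library. Its neighbour Jrk, 11.7 kb away, had means of 21 ± 1.33 CPM (WT) and 32.4 ± 2.42 CPM (KO), likewise with KO above WT in every library. Jrk did not pass edgeR's test over all genes (adjusted p = 1.00).

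Parvg (ENSMUSG00000022439, 84324026 to 84342978, plus strand, 5.86 Mb from Tmprss6) was the most distant of the 9 and the highest per length, with 98.9 CPM per kilobase in WT, above 91.9% of tested genes. The WT libraries measured 221, 274 and 307 CPM, against 142, 205 and 213 CPM for the KO libraries. The highest KO and the lowest WT library were nearly level, at a ratio of 1.03, and the WT mean was 1.43-fold higher (log2 fold change -0.51, SE 0.29). Its paralog Parvb, whose span ends 8337 bases before Parvg begins, was low and went the other way, with means of 1.27 ± 0.204 CPM (WT) and 3.96 ± 1.61 CPM (KO) and no overlap. Parvb did not pass edgeR's test over all genes (log2 fold change 1.64, SE 0.52, adjusted p = 1.00).

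**Figure D1:**
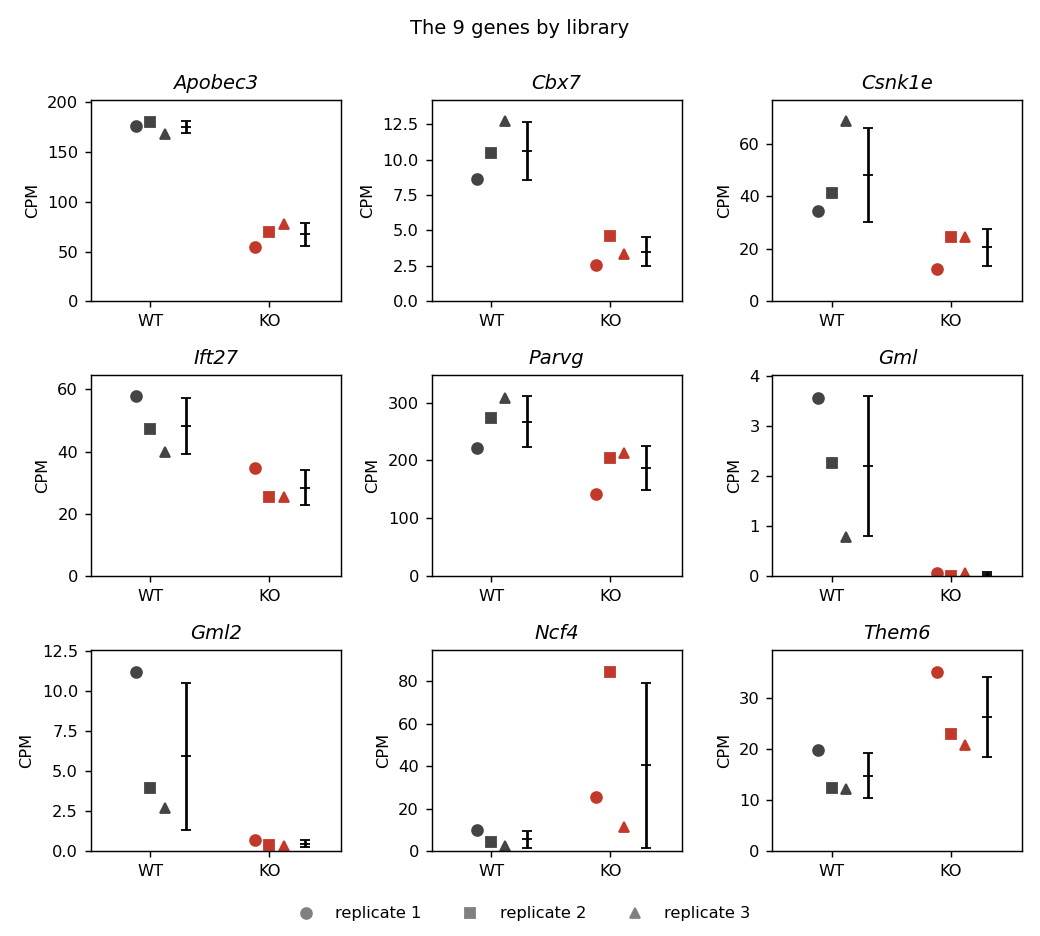
Level of each of the 9 genes in CPM (y axis, from 0) in the 3 WT and 3 KO libraries; marker shapes give the replicate number, and the bars at the right of each group give the mean ± SD. Apobec3 sits between 168 and 180 CPM (WT) and between 54.3 and 77.6 CPM (KO), whereas Ncf4 in KO ranges from 11.3 to 84.6 CPM with replicate 2 the highest.

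Ncf4 (ENSMUSG00000071715, 78244801 to 78262580, plus strand, 0.18 Mb from Tmprss6) was the gene of the 9 that lay closest to Tmprss6. The WT libraries measured 10.1, 4.27 and 2.56 CPM, and the KO libraries 25.7, 84.6 and 11.3 CPM. All KO libraries were above all WT libraries, and replicate 2 was far above the other KO libraries (log2 fold change 2.83, SE 0.82). Without KO replicate 2 the log2 fold change was 1.70, while those of Apobec3, Cbx7, Csnk1e and Ift27 were -1.41, -1.85, -1.39 and -0.69. The catalytic oxidase subunit gene Cybb reached 150 CPM in that library, and 1.28 to 5.66 CPM elsewhere. Ncf1, the p47phox gene, reached 79.9 CPM there and 1.78 to 7.99 CPM elsewhere. In KO replicate 1 Ncf4 stood at 25.7 CPM against 10.1 CPM in WT replicate 1, while Cybb and Ncf1 were at 3.67 and 6.97 CPM against 4.8 and 7.84 CPM. The summed markers in KO replicate 1 were also below WT replicate 1, at 120 against 378 CPM for neutrophils and 82.1 against 196 CPM for macrophages. In KO replicate 3 Ncf4 stood at 11.3 CPM against 2.56 CPM in WT replicate 3. Cybb and Ncf1 were higher there too, at 5.66 and 2.57 CPM against 1.28 and 1.78 CPM. The neutrophil and macrophage sums in KO replicate 3 were 279 and 194 CPM, against 81.3 and 30.2 CPM in WT replicate 3. The part of these markers in the Ncf4 difference was not tested. In pooled cells, more cells of a type and more RNA per cell cannot be told apart.

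Of the genes between Ncf4 and Tmprss6, 3 also had KO above WT in every library. Csf2rb, the shared beta chain of the interleukin-3, interleukin-5 and GM-CSF receptors, measured 6.92, 4.89 and 2.56 CPM (WT) and 9.17, 56.5 and 7.42 CPM (KO). Csf2rb2, its mouse paralog for interleukin-3, had 0.323 to 1.57 CPM in the WT libraries and 2.2, 21.8 and 2.28 CPM in the KO libraries. Tst, a mitochondrial sulfurtransferase gene 33.8 kb from Tmprss6, had 2.49 to 3.31 CPM (WT) and 4.11 to 5.38 CPM (KO). Without KO replicate 2 the log2 fold changes of Csf2rb, Csf2rb2 and Tst were 0.79, 1.21 and 0.76, against 2.34, 3.18 and 0.72 with it. None of the 3 passed edgeR's test over all genes (adjusted p = 1.00). The nearest tested genes, Kctd17 at 759 bases on one side and Il2rb at 11.9 kb on the other, had overlapping groups.

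**Figure D2:**
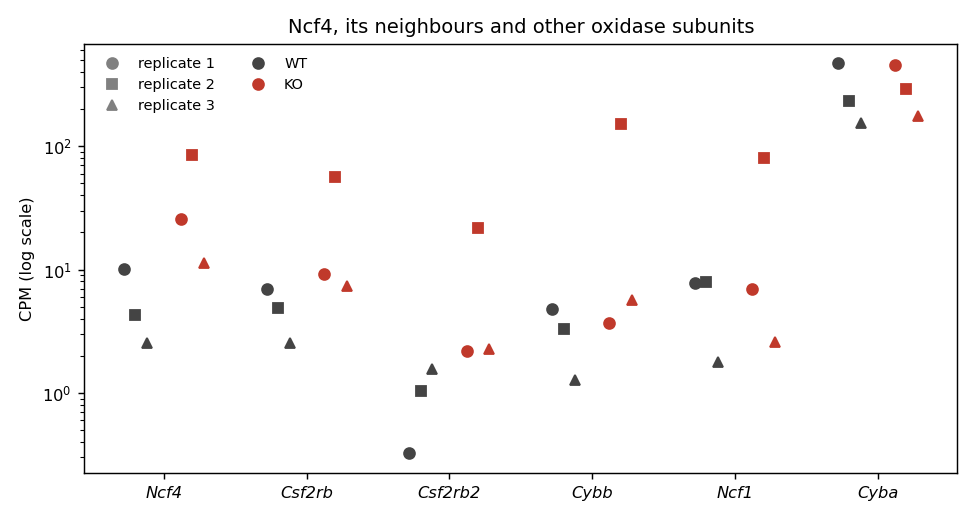
CPM on a log scale of Ncf4, the neighbouring receptor genes Csf2rb and Csf2rb2, and the oxidase subunit genes Cybb, Ncf1 and Cyba in each library; marker shapes give the replicate number and colours the genotype. KO replicate 2 is the highest library for each gene but Cyba, and in KO replicate 1 Ncf4 is at 25.7 CPM while Cybb is at 3.67 CPM. In KO replicate 3 Ncf4 and Cybb are at 11.3 and 5.66 CPM, against 2.56 and 1.28 CPM in WT replicate 3.

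Libraries were also compared within replicate numbers. The 3 differences of a gene must share a sign here, because its groups do not overlap, so only their sizes are described. The KO minus WT differences of log2 CPM (prior count 2) within pairs 1, 2 and 3 were -1.69, -1.37 and -1.12 for Apobec3. They were -1.70, -1.16 and -1.90 for Cbx7 and -1.47, -0.74 and -1.48 for Csnk1e. The narrowest ranges were those of Them6, at 0.78 to 0.88, Parvg, at -0.63 to -0.42, and Ift27, at -0.90 to -0.65. Ncf4 had the widest, at 1.33, 4.27 and 2.09. The within-group SD of log2 CPM was 0.19 for Apobec3, 0.27 for Ift27, 0.35 for Cbx7, 0.54 for Csnk1e and 1.24 for Ncf4. A small spread makes groups less likely to overlap, so the choice of genes bears on these values too.

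**Figure D3:**
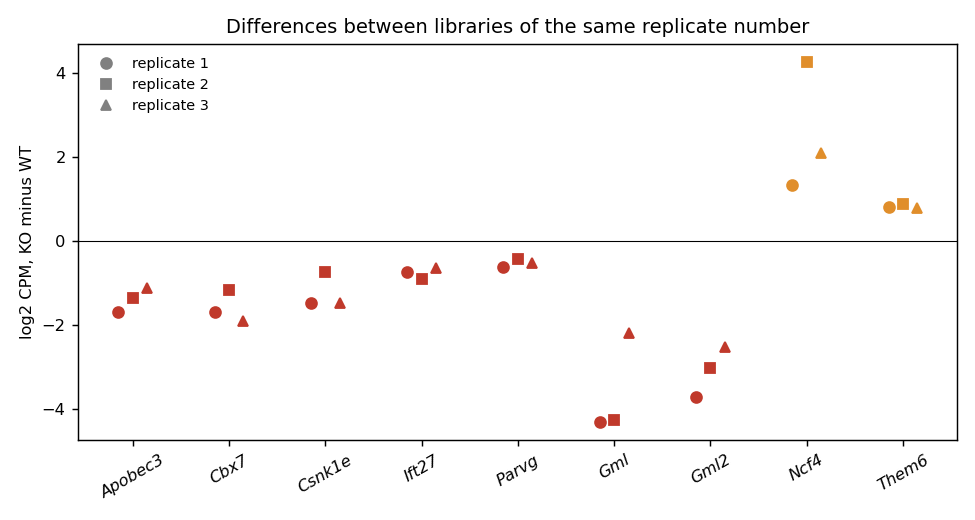
Difference of log2 CPM, KO minus WT, between libraries of the same replicate number (y axis) for each of the 9 genes; marker shapes give the number. The signs follow from groups that do not overlap; the points of Them6 lie between 0.78 and 0.88, and those of Ncf4 between 1.33 and 4.27.

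Genes close to Tmprss6 were set beside the rest of the genome by distance. Over all genes tested, KO lay below WT without overlap in 1.75% and above in 2.27%. Within 10 Mb of Tmprss6, 8 of 199 tested genes lay below (4.02%) and 13 above (6.53%). With the 9 genes left out, 1 of 190 lay below, Fam118a, and 11 lay above. Thus 7 of the 8 lower genes were among the 9 by choice, and no share that includes them is read as support. Beyond 10 Mb on chromosome 15 the shares were 1.75% and 3.15% of 286 genes, and on the 19 other chromosomes they ran from 0.622% to 2.64% below and from 1.23% to 3.47% above. The share above among the 190 genes was 5.79%. Without KO replicate 2, 15 genes within 10 Mb lay below and 23 above, counts that grow by construction when a group has fewer libraries.

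The median log2 fold change was -0.005 over the 199 genes within 10 Mb and -0.005 over all genes tested. Within 2 Mb it was -0.019 over 80 genes, of which 4 lay below WT without overlap (Ift27, Csnk1e, Apobec3 and Cbx7) and 6 above, Ncf4 among them. Within 10 Mb, fold changes under -1 on the log2 scale were seen in 7 genes, of which 5 were Gml, Gml2, Csnk1e, Apobec3 and Cbx7. The other two, Gm26884 (-1.45, SE 0.82) and Serhl (-1.07, SE 0.57), had overlapping groups. That is 3.52% of the 199 genes, against 0.892% over all genes, a share that the choice of the 9 bears on. With the 9 left out it was 2 of 190 genes (1.05%). Fold changes over 1 were seen in 16 (8.04%, against 5.75% over all genes), of which 1 was among the 9, Ncf4. edgeR called 0 genes within 10 Mb (14 at an unadjusted p under 0.05, 7 of them outside the 9). DESeq2 called 0.0446% over all genes and 2 genes within 10 Mb, both among the 9. With the replicate block DESeq2 called 0.171% over all genes and 4 within 10 Mb, all among the 9. edgeR with the block in pairs 1 and 3 called 0.862% over all genes and 9 within 10 Mb. Of these, Rpl3 and Mroh1 (log2 fold change -0.80, SE 0.18, adjusted p = 0.050) lay outside the 9. In replicate 2 Mroh1 was higher in KO, at 53.7 against 33.1 CPM, and over all libraries its log2 fold change was -0.21 (SE 0.59). The 9 genes were chosen from this contrast, so nothing is read from the calls among them.

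**Figure D4:**
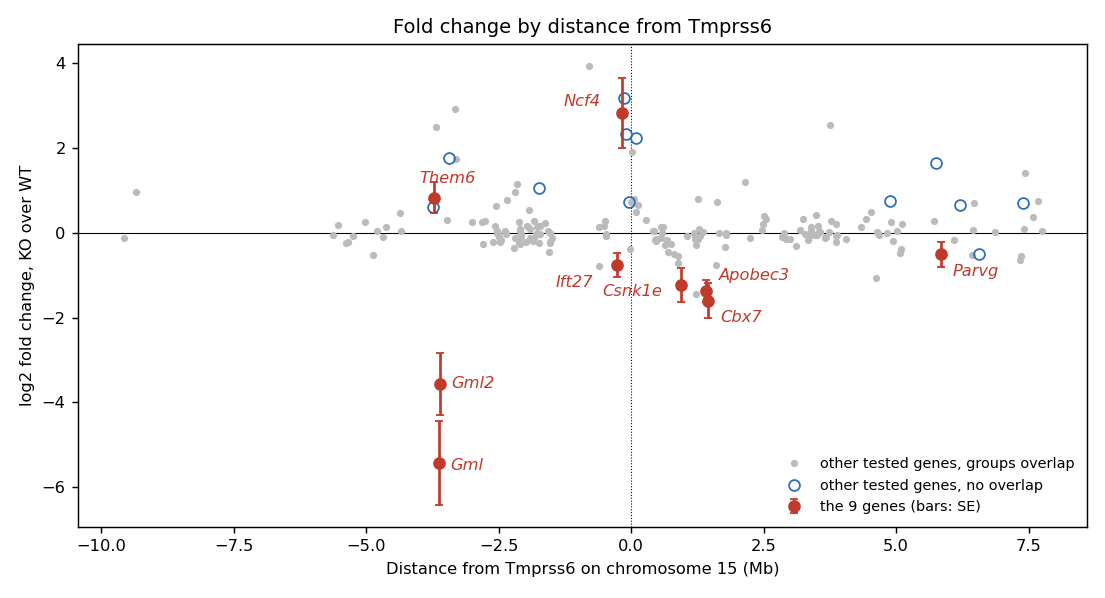
Log2 fold change, KO over WT (y axis), of the 199 tested genes within 10 Mb of Tmprss6 against signed distance from Tmprss6 in Mb (x axis); filled points with SE bars are the 9 genes, open circles other genes whose groups did not overlap, and grey points genes whose groups overlapped. Most genes lie near 0, and Gml and Gml2 at -5.43 and -3.57 stand farthest below; the fitted value of Gml rests on 2 counts in KO and depends on the prior count.

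**Figure D5:**
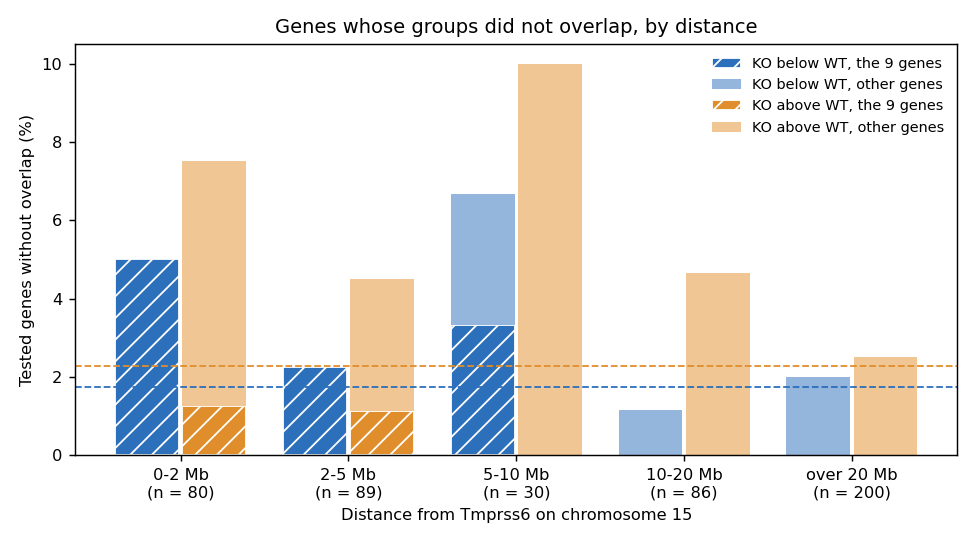
Percent of tested genes on chromosome 15 whose KO libraries all lay below (blue) or above (orange) all WT libraries, by distance from Tmprss6; hatched parts are the 9 genes, n is the number of genes tested, and dashed lines are the shares over all genes, 1.75% and 2.27%. Every blue bar within 5 Mb is made up of the 9 genes alone.

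Over 10 lists of genes that work with the 9 or belong to their families, edgeR called 0 genes in either direction. The genes that DESeq2 called in them were Apobec3 and Gml2, against 0.0446% called over all genes. With the replicate block DESeq2 called 0.171% over all genes and 4 in the lists, all among the 9. The lists include the 9, chosen from this contrast, so nothing is read from the calls among them. edgeR with the block in pairs 1 and 3 called 0.862% over all genes and 9 in the lists. Of these, Ift172 (log2 fold change -1.34, SE 0.26, adjusted p = 0.022) and the clock gene Per2 (-1.18, SE 0.24, adjusted p = 0.033) were not among the 9. In replicate 2 both were higher in KO, at 17.5 against 8.27 CPM for Ift172 and 21.1 against 15.2 CPM for Per2. Over all libraries their log2 fold changes were -0.57 (SE 0.81) and -0.50 (SE 0.58). The share of genes without overlap over all genes is 4.03%. Of the AID and APOBEC deaminases 3 of 5 were tested, and Apobec1, an RNA-editing deaminase, had 20.9 to 27.2 CPM (WT) and 22.6 to 40.5 CPM (KO). Their median log2 fold change was 0.34, and 0.05 without KO replicate 2. Of 14 tested genes of retroviral restriction and sensing none had groups without overlap (median log2 fold change -0.03). Of 18 interferon-induced genes 14 had a log2 fold change below 0 (median -0.20, and 17 and -0.29 without KO replicate 2). Of these, 2, Oas1a and Xaf1, lay below WT in every KO library. The median over all genes tested was -0.005. Genes of a list can vary together, and a shift of a list as a whole was not tested for any list. Oas1a had means of 37.4 ± 3.07 CPM (WT) and 25.6 ± 4.75 CPM (KO), with an edgeR adjusted p of 1.00. All 20 subunits of Polycomb repressive complex 1 were tested, with a median of 0.01, and Cbx7 was the one without overlap.

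Of 18 casein kinase 1 and clock genes Csnk1e lay below and Arntl, the BMAL1 gene, above (WT 10.4 to 11.9 CPM, KO 12 to 24.2 CPM). Csnk1d, the closest relative of Csnk1e, had 154 to 438 CPM (WT) and 147 to 369 CPM (KO), a log2 fold change of -0.09 (SE 0.48). Of 19 intraflagellar transport genes 16 had values below 0 (median -0.16; 11 and -0.02 without KO replicate 2), and Ift27 was the one without overlap. In the parvin, ILK and PINCH list, which also holds integrin genes, 9 of 12 genes were tested, and Ilk, Parva and Lims2 were not. Of the tested genes Parvg lay below and Parvb above (median -0.05). In the phagocyte oxidase list all 7 tested genes had values above 0 (median 0.49), and in 5 of them KO replicate 2 was the highest library. Without it 6 had values above 0 and the median was 0.12. Of 8 tested Ly6 and uPAR genes Gml and Gml2 lay below and Ly6a above, with a median of 0.67 that turned to -0.21 without KO replicate 2. Of 9 thioesterase genes Them6 was the one without overlap (median -0.12).

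The genes whose log2 CPM followed Apobec3 most closely over the 6 libraries, among 10008 genes of at least 5 CPM, were Vgll4 (chromosome 6, Pearson r = 0.973), Fance (chromosome 17, 0.958), Sox4 (chromosome 13, 0.958), Cbx7 (chromosome 15, 0.952) and Xaf1 (chromosome 11, 0.951). The 6 points fall into 2 genotype groups and r is given as a description, with no test. Vgll4 had 46.8 to 50.5 CPM (WT) and 34.6 to 38.7 CPM (KO). Fance, with an equally high r to that of Sox4, differed by only -0.15 on the log2 scale, against -1.38 for Apobec3.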

How the data were processed

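RNA-seq was done on 6 libraries of sorted MEPs. Per the labels' protocols, cDNA came from the SMART-Seq v4 kit and libraries from Nextera XT, neither of which keeps strand. The deposited values are read counts per Ensembl gene and library, not scaled, with a column per library. Per the submitters' processing notes, FastQC 0.11.5, STAR 2.5.3a and edgeR were used, with builds GRCm38.p3 and GRCh38.p3. The counter, and how it treated shared reads, is not given in the sources used here. GRCm38 is the C57BL/6J genome, and whether reads of some libraries aligned to it less well was not tested. In edgeR 4.0.16, filterByExpr (minimum count 10, minimum total 15) left 13453 genes. TMM scaling and the two-sided quasi-likelihood test (glmQLFit, glmQLFTest) followed, with p-values adjusted by Benjamini-Hochberg and called under 0.05. Fold changes are KO over WT. All 9 genes passed the filter; for Gml and Gml2 this rests on the WT libraries. R 4.3.3, DESeq2 1.42.0 and limma 3.58.1 were used. Of the fits, only those of edgeR on all 6 libraries, with and without the replicate block, were tried on simulated counts. DESeq2, limma voom and the fit of pairs 1 and 3 were not.

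The genes and lists were chosen with earlier results of these data known. The rule named the 9 genes, Tmprss6, its nearest tested genes, genes within 10 Mb without overlap and of at least 5 CPM, up to 4 genes per list, and the 5 genes most like Apobec3. Not every gene the rule named is reported, and the genes nearest to each of the 9, and the markers given beside Ncf4, were named after their values were seen. Libraries of both genotypes carry the numbers 1 to 3. Their deviations from the group means correlated across genes at 0.53, 0.16 and 0.63 for numbers 1, 2 and 3. Correlations between libraries of different numbers are not given, so these values do not show that the numbers are pairs. No label gives the meaning of a number. The numbers were used as pairs only in the fits with a block and where libraries of the same number are compared. The main edgeR fit, with its fold changes and SEs, ignored them. Nothing says that libraries of a group were prepared independently beyond the pooling of different mice, so the spread may be partly technical. Distances and 50-base words used the deposited coordinates and GENCODE M21. Alternatives were other scalings, no filter, the replicate block, DESeq2, limma voom, pairs 1 and 3 alone, other windows and leaving out each library.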

Additional observations from a re-analysis of the deposited data

How the results depend on the processing

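Each of the 9 log2 fold changes kept its sign under all 14 alternatives. The genes were chosen from this contrast and their groups do not overlap, so the signs could hardly turn and nothing is read from that. Of 126 recomputed values, 125 moved by less than the within-group SD, and the exception was Gml2 without WT replicate 1 (-2.73). The values ranged from -1.50 to -1.25 for Apobec3, from -1.85 to -1.43 for Cbx7, from -1.48 to -0.89 for Csnk1e and from 1.69 to 3.56 for Ncf4. The count of genes called over the whole table was 0 with edgeR, also with the replicate block (476 at an unadjusted p under 0.05), and 6 with DESeq2, 23 with DESeq2 and the block, and 117 of 13572 in pairs 1 and 3 with the block. The cause of the difference between tools was not tested. Within 10 Mb, the count of genes below WT without overlap was 8, against 4 within 2 Mb, 13 with no filter on low counts and 8 to 24 on leaving out a library. The count above was 13, against 6 within 2 Mb and 17 to 27 on leaving out a library. Such counts grow by construction when a group has fewer libraries. The median log2 fold change of the window was -0.012 with the replicate block and 0.005 to 0.102 on leaving out a library. No count without overlap exists for the fits with a block. Gml and Gml2 in KO are at or near the floor, which limits the precision of their ratios. Without KO replicate 2, an alternative chosen after seeing the data, 5 list medians turned: neutrophil markers from 2.43 to -1.80, eosinophil, basophil and mast cell markers from 2.97 to -1.54, T and NK cell markers from 0.44 to -0.51, Ly6 and uPAR genes from 0.67 to -0.21, and parvin, ILK and PINCH genes from -0.05 to 0.02.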

Other observations

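Genes within 10 Mb of Tmprss6 other than the 9 showed a few further differences without overlap between groups, none past edgeR's test over all genes (adjusted p = 1.00). Fam118a, 6.57 Mb from Tmprss6, was the only one lower in KO (WT 28 to 33.7 CPM, KO 16.2 to 26.5 CPM). Among those higher in KO, Recql4, a DNA helicase gene, had 6.13 to 8.33 CPM in the WT libraries and 9.54, 26.7 and 10.2 CPM in KO replicates 1, 2 and 3. Gtse1, a cell-cycle gene, had 15.1 to 17.8 CPM (WT) and 21.1, 39 and 20.7 CPM (KO). Prr5, a subunit of mTOR complex 2, had 7.04 to 9.85 CPM (WT) and 10.2, 18.4 and 11.7 CPM (KO). Ly6a, which encodes Sca-1, had 1.35 to 2.69 CPM (WT) and 3.85, 13.9 and 3.6 CPM (KO). In these 4 genes KO replicate 2 was the highest library. Without it the log2 fold changes of Recql4, Gtse1, Prr5 and Ly6a were 0.40, 0.33, 0.36 and 0.83, against 1.05, 0.70, 0.65 and 1.77 with it.

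The gene model Gm6723, 85.8 kb from Tmprss6, had 0.0712 to 0.551 CPM (WT) and 1.54 to 2.2 CPM (KO). It is 1 of 9 among the 13453 tested genes whose lowest KO library was at least 2 times the highest WT library, and none of those was among the 9 genes described.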
